A study of Mus musculus with 18 samples.

Results

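Hair follicle stem cells (HFSC) were profiled from mice in which the glucocorticoid receptor had been deleted in dermal cells, a manipulation aimed at the tissue around the stem cells and not at the stem cells themselves. The comparison was of 2 GR KO HFSC libraries with 2 Control HFSC libraries, chosen by their labelled groups, and these were 4 of the 18 libraries of the series. Genes of mitosis and DNA replication were higher in GR KO HFSC, as were several genes of the upper follicle and of keratinocyte differentiation. The surface marker Cd34 was lower, as were 2 of 17 heat shock genes and 2 of 30 glucocorticoid-induced genes, beside 0.315% of all genes tested. Some matrix genes fell too, but none of the 32 genes on a matrix list passed, and summed markers of fibroblasts and of endothelium were lower in the same libraries.

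The GR KO mice carried Pdgfra-CreER and the floxed alleles GR fl/fl on a mixed 129/C57BL/6 strain. CreER is a recombinase that acts once tamoxifen is present, and the Pdgfra driver is active in dermal fibroblasts and the dermal papilla. Control mice were wild type by genotype on the same mixed strain. Both groups were female and received intraperitoneal tamoxifen for 6 days. Since the Control label names neither Cre nor a floxed allele, effects of the receptor's loss, of the recombinase and of DNA linked to the floxed alleles cannot be told apart. The labels say that the HFSC were purified by flow cytometry, but not with which antibodies. The age of the mice, the stage of the hair cycle and whether the libraries of a group came from separate animals are not given in the sources used here, so p-values measure only the spread between these libraries. The series also held adrenalectomised (ADX) and sham-operated (Sham) mice, both wild type C57BL/6 females with 2 HFSC libraries each. In them the adrenal source of corticosterone was removed or left in place, and they are used here beside the deletion.

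HFSC sit in the bulge of the hair follicle and stay quiescent for most of the hair cycle, dividing when the follicle enters a new growth phase. Their entry into division is set by signals from neighbouring cells, among them the dermal papilla, which sends growth factors and inhibitors of the BMP and WNT pathways. Corticosterone acts through the glucocorticoid receptor, a transcription factor encoded by Nr3c1. The title of the series names Gas6, which is secreted and activates the receptor kinases Tyro3, Axl and Mertk (TAM), as the signal through which corticosterone governs stem cell quiescence.

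The libraries held 20673273 and 17593184 counts in GR KO HFSC and 19199781 and 33014976 counts in Control HFSC, so Control replicate 2 was the deepest of the 10 HFSC libraries. Reads were found for 16170 and 16016 genes in GR KO and for 15902 and 15931 genes in Control. Replicates correlated at Pearson 0.961 in GR KO and 0.967 in Control across genes on the log2 CPM scale. CPM are counts relative to a library size scaled by TMM, and they are not corrected for gene length. The stem cell keratin Krt15 had 14842 and 20862 CPM in GR KO, against 31408 and 36208 CPM in Control. Sox9, Lhx2 and Nfatc1, transcription factors of these cells, had at least 227 CPM in each of the 4 libraries. These are some of the markers that the labelled cell type calls for. Others were lower in GR KO, with Cd34 at 784 and 663 CPM, against 1924 and 2143 CPM in Control, and Krt5 at 3578 and 6271 CPM, against 7999 and 9033 CPM. Krt79, a keratin of the upper follicle, was higher, with 3117 and 1848 CPM in GR KO, against 499 and 501 CPM in Control.

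The deleted gene was read in dermal papilla cells (DP) of the same genotypes, because the recombinase acts there. Nr3c1 had 137 and 111 CPM in GR KO DP, against 671 and 978 CPM in Control DP. It fell by 2.73 on the log2 scale (SE 0.38, edgeR adjusted p = 0.0212). Without Control DP replicate 2 the call was lost (−2.62, edgeR adjusted p = 0.0589), and over the alternatives the p-value was 1.28e-16 to 0.0589. In the stem cells, Nr3c1 (chromosome 18, 39410545 to 39491301 on mm10) had 243 and 170 CPM in GR KO HFSC, against 258 and 338 CPM in Control HFSC. Each GR KO library was lower than each Control library, and the log2 fold change was −0.53 (SE 0.24, edgeR adjusted p = 0.367), so it did not pass the test. A count over a whole gene does not show whether the floxed exons were present in these transcripts.

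Of 15231 genes tested, 150 passed the threshold (0.985%), an adjusted p under 0.05 in edgeR's quasi-likelihood test with Benjamini-Hochberg adjustment over all genes. This main fit held all 10 HFSC libraries, with TMM scaling and edgeR's filter on low counts. Calls in HFSC are those of the main fit unless another fit is named. In GR KO HFSC, 102 rose (0.67%) and 48 fell (0.315%). The rises were the larger changes. Their log2 fold changes were 1.06 to 6.63 with a median of 2.47, and 79 exceeded 2. Falls ran to −9.19 with a median of −1.59, and 10 were below −2. The −9.19 is that of Mfap4, which had no reads in GR KO, and a floor of 3 reads gives at least 44.0-fold. The median log2 fold change of all genes tested was 0.00. In each of the 150 the libraries of both groups did not overlap, which was also so in 38.5% of all genes tested. The adjusted p-values lay between 0.0162 and 0.0496, so all calls were close to the threshold, and 1998 genes had an unadjusted p under 0.05.

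**Figure D1:**
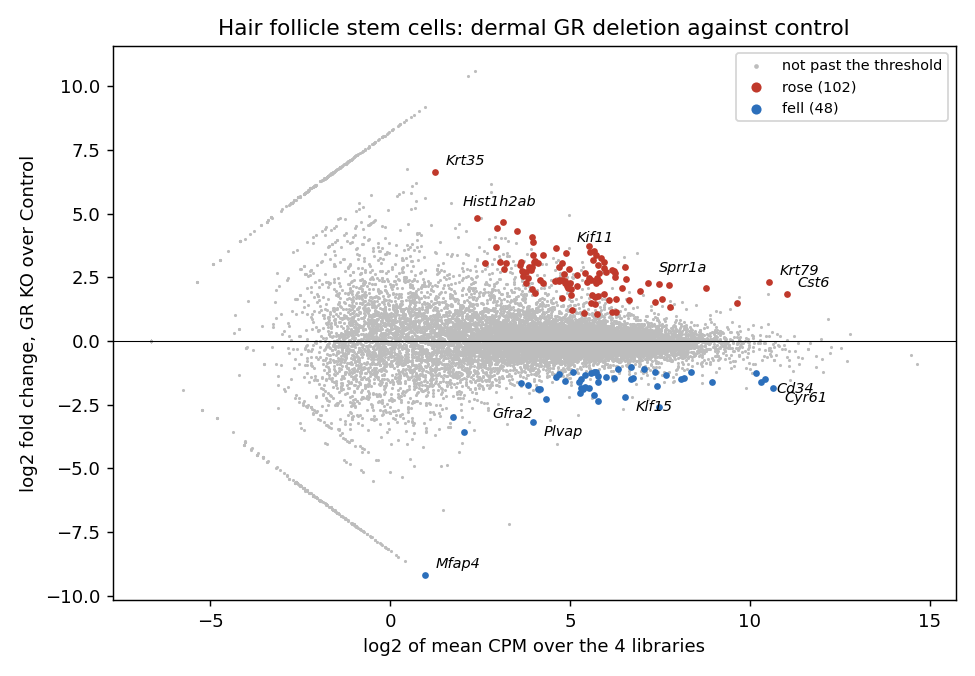
Log2 fold change (GR KO HFSC over Control HFSC) of each of the 15231 genes tested against the log2 of its mean CPM over the 4 libraries, with risen genes in red and fallen genes in blue. The 102 risen genes reach higher fold changes than most of the 48 fallen ones. Slanted rows of grey points at the left are genes with reads in only 1 group.

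The number of calls rested on single libraries, above all on those of Control HFSC. Without Control replicate 2, 5 genes passed, 3 of them among the 150, and without Control replicate 1, 27 passed, 21 of them among the 150. Without GR KO replicate 2 the count was 57 with 24 shared, and without GR KO replicate 1 it was 336 with 118 shared. The direction of the 150 did not change in any of the 9 alternative settings. Since the groups did not overlap in any of the 150, leaving out a library could hardly turn a direction, so this is no check of them. DESeq2 called all 150 among its 660 (4.33%, with 2.69% risen and 1.65% fallen). With a library left out, the log2 fold change of 21 of the 150 moved by over 1.5 times. Sprr1a, Gfra2 and Pdzrn4 passed with each of the 4 libraries left out in turn, and Casp14, Tekt2, Cux1 and Mycl in 3 of these 4 fits. For 22 of the 150 no such fit gave a call.

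Genes that run mitosis formed the largest group of rises. When the 150 genes were sorted by function after their values were seen, 40 risen genes belonged to mitosis and cytokinesis, with log2 fold changes of 2.09 to 4.45 and a median of 2.89. On a list of 34 genes of the G2 and M phases, 17 rose (50%, beside 0.67% of all genes tested) and none fell. Of the 34, 33 were higher in GR KO, with a median log2 fold change of 2.90 over the list, beside 0.00 over all genes tested. Like the other lists, it was chosen with earlier results of these data known. The summed level of the list was 1929 and 4007 CPM in GR KO HFSC, against 589 and 380 CPM in Control HFSC. The lowest GR KO library thus held more of these transcripts than the highest Control library. In bulk samples more cycling cells and more of these transcripts per cycling cell cannot be told apart.

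Kif11 (chromosome 19, 37376403 to 37421859 on mm10), the motor that pushes spindle poles apart, had 42.3 and 66.4 CPM in GR KO HFSC, against 6.23 and 3.80 CPM in Control HFSC. The means were 54.3 ± 17.01 CPM and 5.01 ± 1.72 CPM (SD, n = 2 each). Its log2 fold change was 3.44 (SE 0.51, edgeR adjusted p = 0.0281), and the groups were far apart relative to the spread within each. Ccnb2 (chromosome 9, 70407689 to 70421554 on mm10), a mitotic cyclin, had 73.6 and 136 CPM in GR KO HFSC, against 15.6 and 6.49 CPM in Control HFSC. It rose by 3.25 on the log2 scale (SE 0.54, edgeR adjusted p = 0.0327). Cdk1, the kinase that mitotic cyclins activate, had 82.2 and 168 CPM in GR KO, against 25.5 and 10.6 CPM in Control. In each of these genes the GR KO replicate 2 library was the highest and the Control replicate 2 library the lowest.

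The risen members covered successive steps of division. At the kinetochore, where chromosomes attach to the spindle, Cenpf rose by 3.55 (log2), Casc5, also named Knl1, by 3.10 and Cenpe by 2.91. Of the chromosomal passenger complex, which corrects faulty attachments, the kinase Aurkb rose by 2.97, Cdca8 by 2.77 and Birc5 by 2.44. Cdc20, which turns on the ubiquitin ligase that ends metaphase, rose by 2.42, and Ube2c, a ubiquitin-conjugating enzyme of that ligase, by 2.89. Among genes of cytokinesis, the kinesin genes Kif20a and Kif23 rose by 3.49 and 2.65, Racgap1, the partner of Kif23, by 3.39, Ect2, which activates RhoA at the cleavage furrow, by 3.05 and Prc1, which bundles the midzone microtubules, by 2.71. Outside the list, Ncapg, a condensin subunit, rose by 3.88, Shcbp1, a protein of the midbody, by 4.10 and Esco2, which acetylates cohesin, by 4.45.

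Other members had values of the same size but did not pass. The proliferation marker Mki67 had 146 and 283 CPM in GR KO, against 30.1 and 9.12 CPM in Control, and its log2 fold change was 3.46 (SE 0.78, edgeR adjusted p = 0.0565). For Top2a, which untangles sister chromatids, it was 2.97 (SE 0.66, edgeR adjusted p = 0.0565). The exception in direction was Pttg1, the securin gene, with 90.4 and 46.2 CPM in GR KO, against 42.9 and 125 CPM in Control, so its groups overlapped. Ttk, a kinase of the spindle checkpoint, had a smaller value than the rest at 1.04.

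The mitotic calls depended on single libraries. Without Control replicate 2 none of the 40 mitosis and cytokinesis genes passed (edgeR adjusted p 0.151 to 0.257). Without Control replicate 1, Cenpf, Ccnb2 and Kif23 passed, and without GR KO replicate 2, Kif11 and Shcbp1 passed, with adjusted p up to 0.171 and 0.251 for the others. Without GR KO replicate 1 all 40 passed (0.00435 to 0.0492). Of the list, 29 rose without GR KO replicate 1, 1 without GR KO replicate 2, 3 without Control replicate 1 and 0 without Control replicate 2, while DESeq2 called 31. The log2 fold change of Cenpf was 5.34 without Control replicate 1, and those of Cdc20 and Aurkb were 1.34 and 1.95 without GR KO replicate 2.

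Genes of DNA replication rose as well, with smaller fold changes than those of mitosis. Of 32 genes on the S phase list, 7 rose (21.9%, beside 0.67% of all genes tested) and none fell. All 32 were higher in GR KO, with a median log2 fold change of 1.52. The summed level was 1574 and 3040 CPM in GR KO HFSC, against 791 and 931 CPM in Control HFSC, and the groups did not overlap. Mcm6 (chromosome 1, 128331590 to 128359664 on mm10), a subunit of the replicative helicase, had 141 and 256 CPM in GR KO, against 52.4 and 48.1 CPM in Control. Its log2 fold change was 1.98 (SE 0.30, edgeR adjusted p = 0.0288), with means of 198 ± 81.3 CPM in GR KO, against 50.2 ± 3.07 CPM in Control (SD, n = 2 each). Tk1, the thymidine kinase, had 59.6 and 156 CPM in GR KO, against 16.7 and 12.6 CPM in Control. E2f1, a transcription factor that turns on replication genes, had 15.8 and 28.1 CPM in GR KO, against 3.63 and 2.93 CPM in Control.

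The other risen members were Mcm2 (log2 fold change 2.68), Ccne1, a cyclin of S phase entry (3.06), and the nucleotide synthesis enzymes Tyms (1.65) and Rrm1 (1.53). Without GR KO replicate 2 the values of Mcm2 and Ccne1 were 1.63 and 1.98. Ticrr, which starts replication origins, rose by 4.69 with 7.37 and 26.4 CPM in GR KO, against 0.92 and 0.40 CPM in Control. The clone-named 2810417H13Rik, which RefSeq lists as a synonym of Pclaf, rose by 3.73. Pcna, the sliding clamp, had 159 and 202 CPM in GR KO, against 89.5 and 130 CPM in Control. Its value of 0.72 did not pass (edgeR adjusted p = 0.245).

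Some histone genes that are transcribed during replication were among the rises. Hist1h2ab had 6.55 and 13.9 CPM in GR KO HFSC, against 0.46 and 0.27 CPM in Control HFSC, one of the largest rises (log2 fold change 4.81, SE 0.91, edgeR adjusted p = 0.0359). The linker histone Hist1h1b rose by 3.66 and Hist1h2ae by 3.11. Histone genes have near-identical copies, so the split of reads among them is uncertain. Sorted by function after their values were seen, the risen genes held 13 of replication, nucleotide synthesis and repair and these 3 histones. All of them passed without GR KO replicate 1. None passed without Control replicate 1 (edgeR adjusted p 0.0506 to 0.16) or without Control replicate 2 (0.151 to 0.24). Without GR KO replicate 2, Mcm6 and Hist1h2ae passed, and the others reached up to 0.287.

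**Figure D2:**
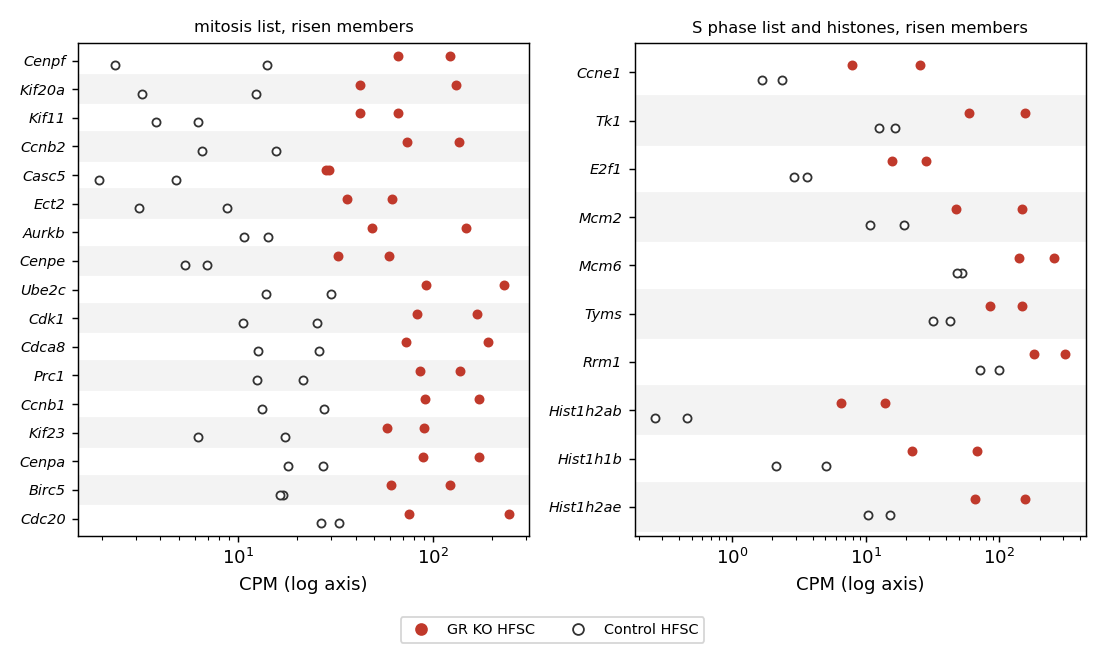
CPM (log axis) of the 17 risen members of the mitosis list at the left and of the 7 risen members of the S phase list with the 3 risen histone genes at the right, with each GR KO HFSC library as a filled red point and each Control HFSC library as an open point below it. In each gene both filled points lie to the right of both open points.

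Genes of mitosis share a promoter design that can be read from the reference. The cell cycle homology region (CHR, searched as TTTGAA or TTCGAA) is bound by complexes that hold mitotic genes off in quiescent cells and on in dividing cells, and it is often paired with CCAAT boxes (searched as CCAAT), while E2F sites (searched as TTTCCCGC or TTTGGCGC) are known from replication genes. The windows reach from 250 bases before to 50 bases after the RefSeq start on GRCm38.p6, and both strands were searched. The promoters of Kif11 (chr19:37376132-37376431, plus strand), Ccnb2 (chr9:70421505-70421804, minus strand), Mcm6 (chr1:128359656-128359955, minus strand) and Tk1 (chr11:117825965-117826264, minus strand) are printed because these had the smallest p-values of each list among those with a sequence, 5′ to 3′ along the gene, with matches on either strand in capitals.
Kif11: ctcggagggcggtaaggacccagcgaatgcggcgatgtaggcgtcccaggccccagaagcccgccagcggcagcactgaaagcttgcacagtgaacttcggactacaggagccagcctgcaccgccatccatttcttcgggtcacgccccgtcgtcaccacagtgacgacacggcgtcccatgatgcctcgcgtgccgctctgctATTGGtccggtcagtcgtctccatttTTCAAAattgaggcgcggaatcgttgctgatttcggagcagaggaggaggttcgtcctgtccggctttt
Ccnb2: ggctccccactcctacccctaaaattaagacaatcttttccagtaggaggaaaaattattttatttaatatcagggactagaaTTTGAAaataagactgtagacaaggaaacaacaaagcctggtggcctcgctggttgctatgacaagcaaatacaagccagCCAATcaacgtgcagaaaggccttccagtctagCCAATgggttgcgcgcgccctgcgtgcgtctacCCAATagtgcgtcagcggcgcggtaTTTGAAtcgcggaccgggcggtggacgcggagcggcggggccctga
Mcm6: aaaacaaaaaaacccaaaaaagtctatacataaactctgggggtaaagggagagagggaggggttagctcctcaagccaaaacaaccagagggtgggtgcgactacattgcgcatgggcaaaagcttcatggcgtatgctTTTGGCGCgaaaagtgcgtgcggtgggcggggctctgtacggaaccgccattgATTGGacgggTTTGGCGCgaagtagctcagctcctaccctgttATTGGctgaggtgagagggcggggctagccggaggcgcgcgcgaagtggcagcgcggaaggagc
Tk1: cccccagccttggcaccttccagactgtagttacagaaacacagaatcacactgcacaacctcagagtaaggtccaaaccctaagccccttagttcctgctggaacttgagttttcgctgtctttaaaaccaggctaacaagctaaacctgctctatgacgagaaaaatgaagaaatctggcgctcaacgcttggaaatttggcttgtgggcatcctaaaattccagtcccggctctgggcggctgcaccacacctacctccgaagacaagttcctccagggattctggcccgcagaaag

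The Kif11 window held 1 CHR and 1 CCAAT box, and the Ccnb2 window held 2 CHR and 3 CCAAT boxes. The Mcm6 window held 2 E2F sites and 2 CCAAT boxes and no CHR, and the Tk1 window held none of these letters. Sequences were found for 15 of the 17 risen genes on the mitosis list, with 17 promoters. Of these 17 promoters, 82.4% held a CHR, 88.2% a CCAAT box, 76.5% both and none an E2F match. Among all 32851 mouse promoters of the same length, 19.2% held a CHR, 37.4% a CCAAT box, 7.52% both and 1.56% an E2F match. Of the 15 promoters of the other members of the mitosis list, 80% held a CHR, 60% a CCAAT box and 60% both, and the difference from the risen members was not tested. Of the 7 promoters of risen S phase genes, 1 held a CHR, 3 a CCAAT box and 1, that of Mcm6, an E2F match. Of 45 promoters of fallen genes, 11.1% held a CHR and 31.1% a CCAAT box, shares below those of all promoters. These are matches of letters in a window and are not evidence of binding.

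CDK inhibitors and D cyclins did not pass in the main fit, whereas the regulators E2f1, Ccne1, Mycn and Mycl rose in it. Of 9 CDK inhibitors and D cyclins tested, none rose or fell in the main fit, with a median of 0.26. DESeq2 called 1 risen, and edgeR with no filter on low counts 2. Ccnd1, the D cyclin of many growth signals, had 120 and 192 CPM in GR KO, against 86.7 and 182 CPM in Control, so its groups overlapped. Ccnd2 had 428 and 805 CPM in GR KO, against 306 and 366 CPM in Control (log2 fold change 0.88, edgeR adjusted p = 0.187). It passed in 3 of 9 alternatives, among them DESeq2 (adjusted p = 0.0366) and edgeR without GR KO replicate 1 (0.0269). The value of the inhibitor Cdkn2c was 1.66 (edgeR adjusted p = 0.237).

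Genes of the upper follicle and of keratinocyte differentiation formed the next group of rises. Of the 150 genes, 14 risen ones were placed in this group after their values were seen, with a median log2 fold change of 2.14. Sprr1a (chromosome 3, 92483952 to 92485895 on mm10), a cornified envelope protein that is also induced in activated epidermis, had 281 and 195 CPM in GR KO HFSC, against 40.4 and 58.4 CPM in Control HFSC. It rose by 2.27 on the log2 scale (SE 0.27, edgeR adjusted p = 0.0162), with means of 238 ± 60.9 CPM in GR KO, against 49.4 ± 12.8 CPM in Control (SD, n = 2 each). Casp14, a caspase of cornifying keratinocytes, had 43.1 and 64.1 CPM in GR KO, against 10.4 and 11.7 CPM in Control. Krt79 (chromosome 15, 101929332 to 101940324 on mm10), a keratin of the follicle's infundibulum, had 3117 and 1848 CPM in GR KO, against 499 and 501 CPM in Control. Krt79 was well separated at a high count, and its log2 fold change was 2.31 (SE 0.44, edgeR adjusted p = 0.0367).

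The protease inhibitor gene Cst6 gave the most reads of them, with 4211 and 2309 CPM in GR KO, against 728 and 1098 CPM in Control. Alox12e, a lipoxygenase of the epidermis, had 1393 and 980 CPM in GR KO, against 418 and 416 CPM in Control. The protease gene Klk7 of desquamation had 263 and 445 CPM in GR KO, against 52.0 and 101 CPM in Control. The groups of each were apart, and GR KO replicate 1 was the higher library for Cst6 and Alox12e but not for Klk7. Further rises were seen for Gsdma3 (log2 fold change 2.61), Pglyrp4, a peptidoglycan recognition protein (2.36), the beta-defensin Defb6 (2.07) and Grhl1, a transcription factor of epidermal junction genes (1.15). Krt35, a keratin of the hair shaft, had 186 reads over both GR KO libraries and 2 reads over both Control libraries, a ratio of 116 after scaling (exact 95% counting interval 31.5 to 961), which covers counting error only.

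The lists for these fates moved only in part. Of 20 genes of the differentiated epidermis, Sprr1a and Klk7 rose, Lor, a late cornified envelope protein, fell by 1.88 (log2), and 14 were higher. DESeq2 called 6 of the list risen and 1 fallen, and edgeR with no filter on low counts 7 and 1. The summed level of the 20 genes was 6254 and 2990 CPM in GR KO, against 2833 and 3093 CPM in Control, and the groups overlapped. Suprabasal keratins did not pass, with log2 fold changes of 0.98 for Krt1 and 0.66 for Krt10. Of 12 genes tested on the list of inner root sheath and hair shaft keratins, Krt35 and Krt79 rose and 10 were higher (median 1.74), but most had few reads. Krt79 is a keratin of the infundibulum and not of these layers, so Krt35 was the only called gene of these fates. The list summed to 3155 and 1926 CPM in GR KO, against 521 and 540 CPM in Control, nearly all of it Krt79. Among 15 sebaceous gland genes and 10 basal or activated keratinocyte keratins none passed in the main fit, with medians of 0.42 and −0.14. DESeq2 called 1 of these keratins fallen.

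Of these 14 genes Sprr1a alone kept its call whichever library was left out. Without Control replicate 2 the edgeR adjusted p of the others was up to 0.237, with 0.0807 for Casp14 and 0.207 for Krt79. Without Control replicate 1, Sprr1a and Casp14 passed, and the others reached up to 0.16, with 0.113 for Krt79. Without GR KO replicate 2, 7 of the 14 passed, and without GR KO replicate 1, 9 passed, with adjusted p up to 0.251 and 0.098. Lor passed only without Control replicate 1 (0.0319), against 0.0529 without GR KO replicate 1, 0.123 without GR KO replicate 2 and 0.227 without Control replicate 2. The log2 fold change of Defb6 was 1.14 without GR KO replicate 1 and that of Lor −1.18 without Control replicate 2.

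Transcription factor genes that rose included Cux1, a homeobox gene of the hair lineages, with 64.2 and 84.2 CPM in GR KO HFSC, against 18.3 and 11.7 CPM in Control HFSC (log2 fold change 2.31, SE 0.33, edgeR adjusted p = 0.0281). It was the only member of 17 hair germ and matrix fate genes that passed, and the median of that list was 0.32. Mycn had 33.4 and 53.1 CPM in GR KO, against 9.30 and 7.32 CPM in Control, and Mycl had 32.9 and 30.8 CPM in GR KO, against 8.18 and 4.99 CPM in Control. The groups were apart for both MYC family members, whereas Myc itself had 112 and 124 CPM in GR KO, against 134 and 165 CPM in Control (log2 fold change −0.34, edgeR adjusted p = 0.576). Pou3f1, a POU factor known from Schwann cells and suprabasal keratinocytes, rose by 2.08, and Egr2 by 1.14. Of these 5 factors none passed without Control replicate 2 (edgeR adjusted p 0.151 to 0.236). Cux1 and Mycl alone passed without Control replicate 1 or without GR KO replicate 2, where the others reached up to 0.117 and 0.182, and all but Egr2 passed without GR KO replicate 1 (0.121 for Egr2). The log2 fold change of Pou3f1 was 1.11 without GR KO replicate 2.

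Among stem cell genes Cd34 fell, and none of the bulge transcription factors passed in the main fit. Cd34 (chromosome 1, 194938819 to 194961279 on mm10), the sialomucin used to sort bulge stem cells, had 784 and 663 CPM in GR KO HFSC, against 1924 and 2143 CPM in Control HFSC. The means were 723 ± 85.6 CPM and 2033 ± 155 CPM (SD, n = 2 each), and the log2 fold change was −1.49 (SE 0.29, edgeR adjusted p = 0.0384). Whether Cd34 was used as a gate in the sort is not given in the sources used here, and the part of a gate in its level was not tested. Of 24 surface markers and quiescence genes Cd34 alone passed in the main fit. DESeq2 called 7 fallen, and edgeR with no filter on low counts called 1 risen and 9 fallen. In the main fit 15 were lower, and the median log2 fold change of the 24 genes was −0.43. Their summed level was 24657 and 29897 CPM in GR KO, against 48659 and 52375 CPM in Control, a difference carried mostly by Krt15, whose own log2 fold change of −0.92 did not pass (edgeR adjusted p = 0.173).

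Of the 20 bulge stem cell transcription factors tested 9 were higher and 11 lower, and the median was −0.05, while DESeq2 called 1 risen and 1 fallen. Sox9 had 345 and 593 CPM in GR KO, against 639 and 467 CPM in Control, Lhx2 had 227 and 396 CPM in GR KO, against 247 and 373 CPM in Control, and Nfatc1 had 317 and 483 CPM in GR KO, against 397 and 369 CPM in Control. The groups overlapped in each of these genes. Lgr5, a receptor of the WNT agonists named R-spondins, had 221 and 236 CPM in GR KO, against 406 and 227 CPM in Control. The quiescence factors Foxc1, Fgf18 and Bmp6 had log2 fold changes of 0.23, −0.96 and 0.26, and only Fgf18 had no overlap, with 17.4 and 21.96 CPM in GR KO, against 31.3 and 45.0 CPM in Control (edgeR adjusted p = 0.227).

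Some of the fallen genes are known from neural-type signalling, a grouping made after their values were seen, with no list behind it. Gfra2 (chromosome 14, 70890130 to 70979838 on mm10), a co-receptor of GDNF family ligands, had 6.64 and 7.02 CPM in GR KO HFSC, against 34.7 and 32.4 CPM in Control HFSC. Replicates were nearly equal within each group, and the log2 fold change was −2.30 (SE 0.29, edgeR adjusted p = 0.0162), past the threshold with any library left out. Chat, the enzyme that makes acetylcholine, fell by 1.33, the potassium channel Kcnk2 by 1.21 and Sncg, a synuclein, by 2.59. Pdzrn4, a PDZ domain protein, had 88.8 and 67.9 CPM in GR KO, against 298 and 232 CPM in Control (log2 fold change −1.76, SE 0.24, edgeR adjusted p = 0.0162). Tekt2, a protein of cilia, and Tmtc1 fell by 1.84 and 2.11, with Tekt2 lost without Control replicate 2 and Tmtc1 in every fit but that without GR KO replicate 1 (edgeR adjusted p up to 0.0807 and 0.146). Cd34 missed the threshold without GR KO replicate 2, Control replicate 1 or Control replicate 2 (edgeR adjusted p 0.121, 0.0663 and 0.187), Sncg likewise (0.0817, 0.0601 and 0.229), and Chat and Kcnk2 without each of the 4 libraries (0.061 to 0.151). The log2 fold change of Sncg was −3.97 without GR KO replicate 1.

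The remaining genes with the largest falls were Slc22a22, a member of the organic ion transporter family, with 0.50 and 0.78 CPM in GR KO, against 8.48 and 6.89 CPM in Control, and Zfp429, a zinc finger gene, with 0.50 and 1.003 CPM in GR KO, against 5.21 and 6.76 CPM in Control. Their log2 fold changes were −3.58 and −2.99, and neither passed with a library left out (edgeR adjusted p 0.0561 to 0.189). Serpinb10, a protease inhibitor of the serpin family, fell by 2.34 and Usp18, which limits interferon signalling, by 2.03. Usp18 was the only one of 22 interferon response genes that passed, and 13 of the 22 were higher. Serpinb10 and Usp18 missed the threshold without GR KO replicate 2 (edgeR adjusted p 0.076 and 0.109) or Control replicate 2 (0.161 and 0.201), where the log2 fold change of Usp18 was −1.19.

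Few glucocorticoid-induced genes passed in HFSC. Of 30 such genes, Klf15 and Rgs2 fell in the main fit (6.67%, beside 0.315% of all genes tested) and none rose. DESeq2 called 1 risen and 2 fallen, and edgeR with no filter on low counts called 1 risen and 4 fallen. In the main fit 18 were lower, and the median log2 fold change was −0.28. Klf15 (chromosome 6, 90462576 to 90475238 on mm10), a metabolic transcription factor, had 41.9 and 24.4 CPM in GR KO HFSC, against 181 and 121 CPM in Control HFSC, with means of 33.1 ± 12.3 CPM and 151 ± 42.4 CPM (SD, n = 2 each). Its log2 fold change was −2.18 (SE 0.39, edgeR adjusted p = 0.0327). Rgs2, which dampens signalling by G proteins, had 35.9 and 17.8 CPM in GR KO, against 73.5 and 91.3 CPM in Control. The most used markers of glucocorticoid action overlapped or missed the threshold. Fkbp5, a co-chaperone of the receptor, had 82.4 and 30.4 CPM in GR KO, against 28 and 58.3 CPM in Control. Tsc22d3 had 683 and 239 CPM in GR KO, against 794 and 1140 CPM in Control (log2 fold change −1.07, edgeR adjusted p = 0.581). Zbtb16 and Per1 had log2 fold changes of 0.43 and −0.38.

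Heat shock genes fell in part. Of 17 chaperones Hspa1b and Hspb1 fell and none rose (6 fell in DESeq2), 13 were lower, and the median log2 fold change was −0.55. Hspa1b, an inducible HSP70 gene, had 293 and 189 CPM in GR KO HFSC, against 804 and 683 CPM in Control HFSC (log2 fold change −1.63, SE 0.30, edgeR adjusted p = 0.0327). Its near-identical neighbour Hspa1a stood at −1.62 and did not pass (edgeR adjusted p = 0.0731), and reads shared by the pair are uncertain. The small chaperone Hspb1 had 828 and 553 CPM in GR KO, against 1610 and 1661 CPM in Control. Klf15, Rgs2, Hspa1b and Hspb1 all passed without GR KO replicate 1 and missed the threshold without GR KO replicate 2 (edgeR adjusted p 0.0902 to 0.181), Control replicate 1 (0.0655 to 0.0823) or Control replicate 2 (0.113 to 0.207).

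Immediate early genes, which dissociation of tissue can switch on, were mostly lower. Of 24, Egr2 alone passed in the main fit and rose. DESeq2 also called 6 fallen, and edgeR with no filter on low counts 8. In the main fit 20 were lower, and the median log2 fold change was −0.77. Fos had 2896 and 1947 CPM in GR KO HFSC, against 3770 and 6022 CPM in Control HFSC (log2 fold change −1.02, edgeR adjusted p = 0.166), and Atf3 had 825 and 451 CPM in GR KO, against 1179 and 1859 CPM in Control (−1.25, edgeR adjusted p = 0.12). In these genes Control replicate 2 was the highest library and GR KO replicate 2 the lowest. The summed level of the list was 16284 and 9602 CPM in GR KO, against 19974 and 26899 CPM in Control. It moved in the same direction as the heat shock list, and its part in the falls of heat shock genes was not tested.

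Genes of matrix and of cell-matrix signalling outside the matrix list fell, and they were picked after their values were seen. Cyr61 (chromosome 3, 145646976 to 145649981 on mm10), a matricellular target of YAP, had 909 and 509 CPM in GR KO HFSC, against 2038 and 3006 CPM in Control HFSC (log2 fold change −1.83, SE 0.31, edgeR adjusted p = 0.0327). As for Fos and Atf3, Control replicate 2 was its highest library and GR KO replicate 2 its lowest. Whether its fall belongs with those of the immediate early genes was not tested. Ecm1, an extracellular matrix glycoprotein, fell by 1.62, and P3h2 and Fkbp10, which act on collagen during its folding, by 1.49 each. Mfap4 had no reads in GR KO and 164 reads in Control, at least 44.0-fold lower in GR KO with a floor of 3 reads over the group. Of the 32 genes on the matrix list none passed in the main fit. DESeq2 called 1 risen and 4 fallen, and edgeR with no filter on low counts called 2 risen and 6 fallen. In the main fit 19 were lower and the median was −0.25. Postn, a periostin made by bulge cells and fibroblasts, had 3485 and 1618 CPM in GR KO, against 6607 and 5242 CPM in Control (−1.22, edgeR adjusted p = 0.126). Cyr61 missed the threshold without GR KO replicate 2 or Control replicate 2 (edgeR adjusted p 0.068 and 0.163), P3h2 without GR KO replicate 2, Control replicate 1 or Control replicate 2 (0.171, 0.113 and 0.187), Fkbp10 without GR KO replicate 1, Control replicate 1 or Control replicate 2 (0.0603, 0.0691 and 0.151), and Ecm1 and Mfap4 without each library (0.0529 to 0.206).

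**Figure D3:**
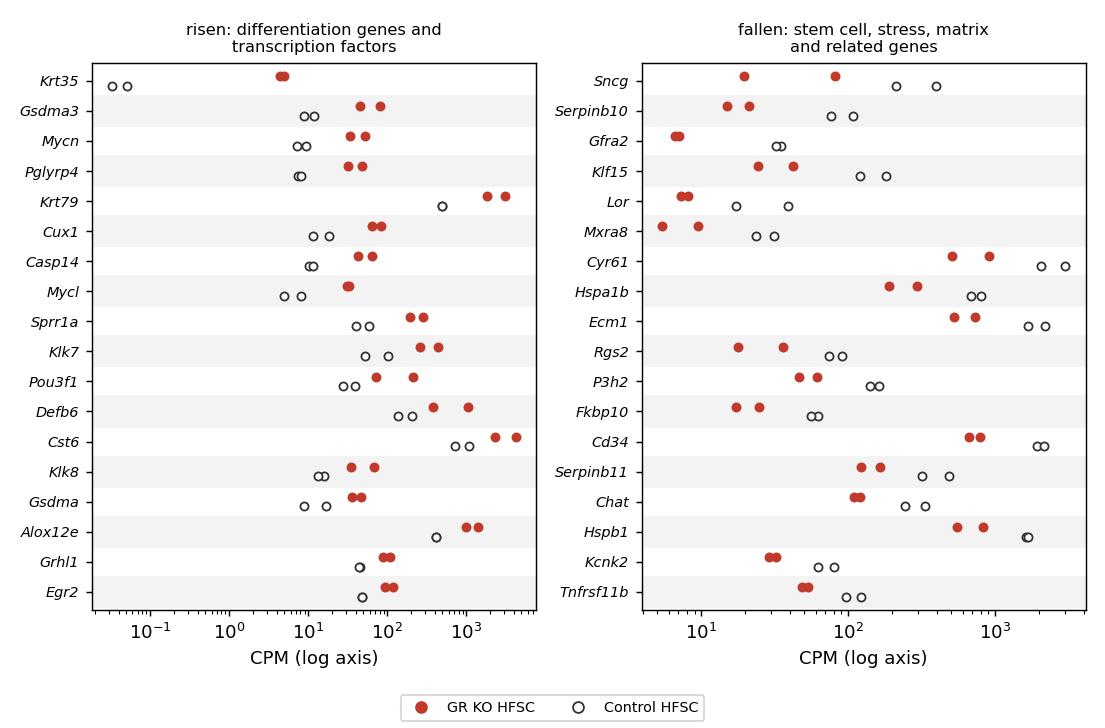
CPM (log axis) of risen genes of differentiation with risen transcription factors at the left and of fallen genes of stem cells, stress, matrix and serpins at the right, with each GR KO HFSC library as a filled red point and each Control HFSC library as an open point below it. The groups do not overlap in any gene shown, and Mfap4 is left out because it had no reads in GR KO.

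No gene of the pathway named in the title passed in the stem cells in the main fit. Gas6 (chromosome 8, 13465374 to 13494535 on mm10) had 236 and 382 CPM in GR KO HFSC, against 289 and 335 CPM in Control HFSC, and its log2 fold change was −0.01 (SE 0.24, edgeR adjusted p = 0.996). Both Control libraries lay between the GR KO libraries. Of its receptors, Axl had 74.2 and 68.6 CPM in GR KO, against 132 and 141 CPM in Control (−0.93, SE 0.25, edgeR adjusted p = 0.0963), so the groups were apart but the test was not passed. Tyro3 and Mertk had log2 fold changes of −0.72 and −0.34, and the other ligand Pros1 one of −0.04. Axl passed in 2 of 9 alternatives, DESeq2 (adjusted p = 0.0108) and edgeR with no filter on low counts. Neither called another of the 5 genes. Each of the 5 values was below 0, with a median of −0.34.

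Signals known to control quiescence did not pass in the main fit either, but some did in DESeq2 or in edgeR with no filter on low counts. The fit with no filter called 2 BMP and 4 FGF genes fallen and 3 hedgehog genes risen. It also called 1 WNT gene risen and 3 fallen, 1 TGF-beta gene fallen and 1 Notch gene risen. Among 19 BMP genes none passed, 13 were lower and the median was −0.36. The BMP targets Id1 and Id2 had log2 fold changes of −0.92 (edgeR adjusted p = 0.142) and −0.73 (0.147), and the ligand Bmp2 one of −1.35 (0.111), and these 3 fell in DESeq2 (adjusted p 0.0243, 0.0124 and 0.0294). Among 35 WNT genes none passed and 20 were higher, while the WNT inhibitors Dkk3 and Wif1 had values of −1.07 (0.132) and −0.87 (0.128) and fell in DESeq2 (0.0101 and 0.0239). Among 12 hedgehog genes none passed. The receptor and target gene Ptch1 came closest, with 45.1 and 102 CPM in GR KO HFSC, against 22.1 and 12.7 CPM in Control HFSC (log2 fold change 2.08, SE 0.50, edgeR adjusted p = 0.0668), and it passed in 4 of 9 alternatives, DESeq2 included (0.00124). Among 17 FGF genes none passed in the main fit and 4 fell in DESeq2. The receptor Fgfr1 had 104 and 103 CPM in GR KO, against 243 and 179 CPM in Control (−1.03, edgeR adjusted p = 0.0697). The 20 TGF-beta genes and 16 Notch genes had medians of −0.02 and −0.21. None was past the threshold in the main fit, and DESeq2 called 1 fallen TGF-beta gene.

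**Figure D4:**
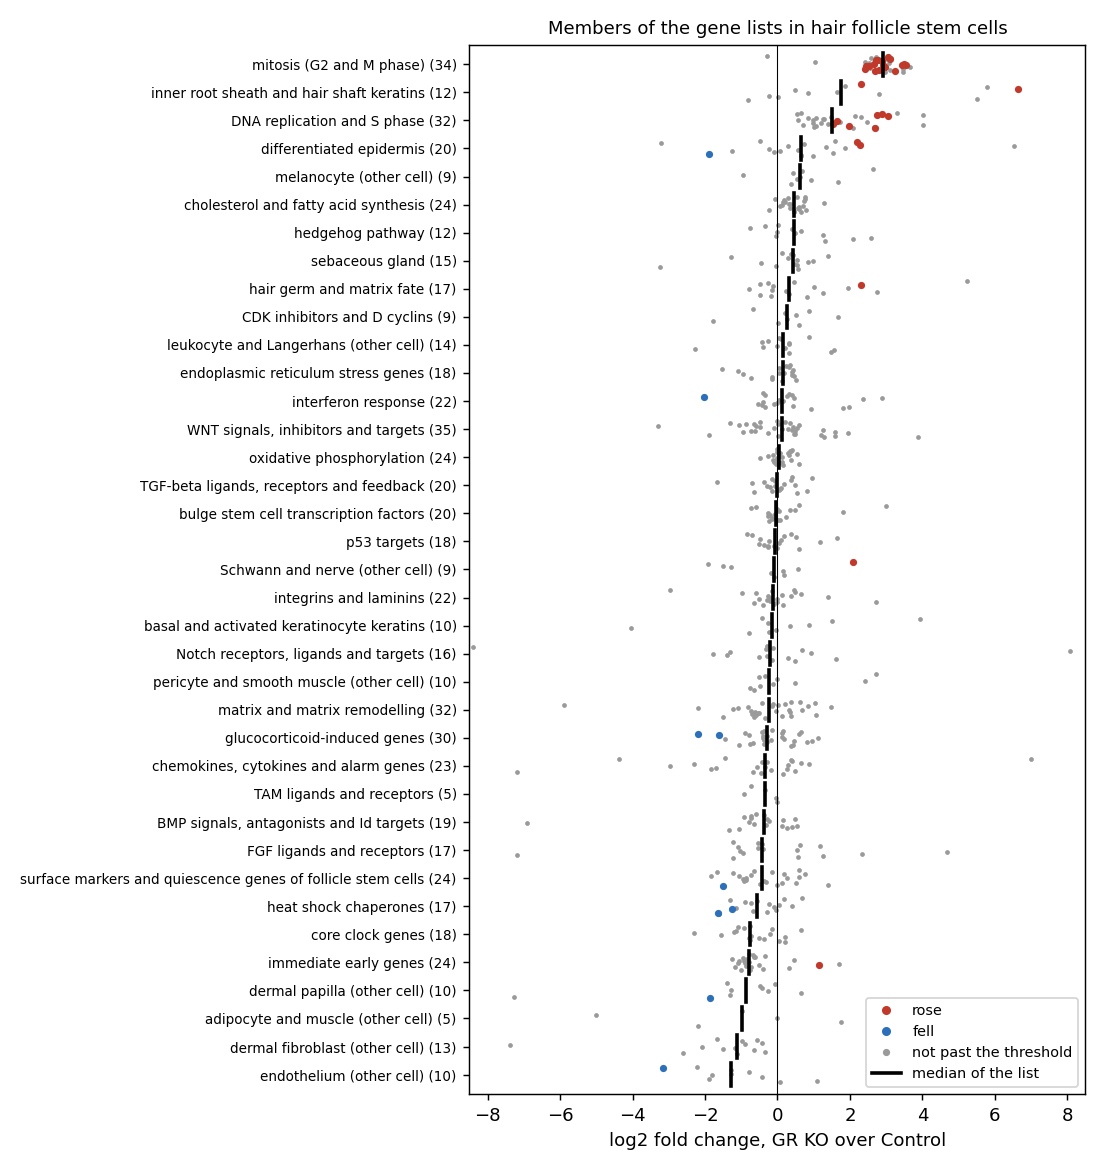
Log2 fold changes (GR KO HFSC over Control HFSC) of the tested members of 37 gene lists, with the number tested in brackets, each member as a point and the median of each list as a black bar. The mitosis list has the highest median at 2.90, followed by inner root sheath and hair shaft keratins at 1.74 and the S phase list at 1.52.

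Metabolic and clock genes did not pass in the main fit. Of 24 genes of cholesterol and fatty acid synthesis none passed (1 rose in DESeq2 and 1 with no filter on low counts). Of them 22 were higher, with a median log2 fold change of 0.45 over the list. Hmgcs1, an early enzyme of the mevalonate pathway, had 233 and 224 CPM in GR KO HFSC, against 152 and 138 CPM in Control HFSC (0.66, edgeR adjusted p = 0.191). Of 18 clock genes none passed (2 fell in DESeq2 and 4 with no filter on low counts), 14 were lower and the median was −0.74. Among them the output factor Dbp had 75.6 and 21.6 CPM in GR KO, against 192 and 285 CPM in Control (−2.29, edgeR adjusted p = 0.206). The hour at which the mice were killed is not given in the sources used here. The 24 oxidative phosphorylation genes, 18 p53 targets and 18 endoplasmic reticulum stress genes had medians of 0.05, −0.05 and 0.14, with none past the threshold.

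Markers of other skin cells were checked in the same libraries. Of 13 dermal fibroblast genes tested none passed, and all 13 were lower, with a median log2 fold change of −1.12, beside 0.00 over all genes tested. Their summed level was 272 and 387 CPM in GR KO HFSC, against 530 and 459 CPM in Control HFSC, and it was carried largely by Fbln1. Among its defining genes, Dcn had 13.9 and 21.96 CPM in GR KO, against 27.7 and 53.5 CPM in Control. Others were near 0, with Pdgfra at 0.55 and 1.11 CPM in GR KO, against 2.76 and 0.87 CPM in Control, and Lum at 0.82 and 1.23 CPM in GR KO, against 3.27 and 5.33 CPM in Control. Of 10 dermal papilla genes tested Crabp1 fell by 1.85, and 9 were lower (226 and 211 CPM summed in GR KO, against 347 and 301 CPM in Control). The defining Corin had 0 and 6 reads in GR KO and none in Control, and Sox2 had 2 and 0 reads in GR KO and 10 and 16 reads in Control.

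Of 10 endothelial genes Plvap, which forms the diaphragms of vessel pores, fell, with 3.37 and 2.90 CPM in GR KO, against 38.4 and 17.8 CPM in Control (log2 fold change −3.16, SE 0.55, edgeR adjusted p = 0.0327), and 8 were lower. The endothelial sum was 32.5 and 51.2 CPM in GR KO, against 122 and 88.3 CPM in Control. The pericyte sum was 240 and 371 CPM in GR KO, against 447 and 383 CPM in Control, and adipocyte and muscle genes summed to at most 23.9 CPM in any library, with Adipoq and Lep at 0 in all 4. The levels of these dermal markers thus moved with the falls of matrix genes, and their part in those falls was not tested. The fibroblast, papilla, endothelial and pericyte sums were each lower in both GR KO libraries than in either Control library. The part of other cells in the rises was not tested.

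Leukocyte and Langerhans genes summed to 3396 and 4342 CPM in GR KO HFSC, against 3817 and 3817 CPM in Control HFSC, mostly Cd74 and related antigen presentation genes, with Ptprc at 18.4 and 14.3 CPM in GR KO, against 20.6 and 5.63 CPM in Control. Of 14 such genes none passed. Melanocyte genes summed to 143 and 170 CPM in GR KO, against 190 and 136 CPM in Control, and these groups overlapped. Schwann cell and nerve genes summed to 178 and 340 CPM in GR KO, against 171 and 170 CPM in Control, of which Pou3f1 alone held 72.3 and 211 CPM in GR KO, against 39.3 and 27.8 CPM in Control. Plvap and Crabp1 missed the threshold without GR KO replicate 2 (edgeR adjusted p 0.0851 and 0.146) or Control replicate 2 (0.0807 and 0.272), and Plvap also without Control replicate 1 (0.0963). The log2 fold change of Crabp1 was −1.06 without Control replicate 2.

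Adrenalectomy, which removes the hormone instead of its dermal receptor, gave values for the same genes in other mice. The comparisons share no library, but both were tested in the same fit, which shares the estimate of each gene's spread. Their calls are therefore not independent. They also differ in strain, experiment, surgery and tamoxifen, which the labels give for the deletion groups only. In ADX HFSC against Sham HFSC, 45 of 15231 genes passed (0.295%), of which 43 rose (0.282%) and 2 fell (0.0131%). Both comparisons called 17 genes, 15 risen and 2 fallen, all in the same direction. These were 11.3% of the calls after GR deletion and 37.8% of those after adrenalectomy. The shared rises were Ccnb2, Birc5, Cks2, Cdkn3 and Stmn1 of the cell cycle, Hist1h1b, Hist1h2ab and Hist1h2ae, Sprr1a, Defb6, Krt35, Gsdma3 and Cst6 of keratinocyte differentiation, and the transcription factors Cux1 and Egr2. The shared falls were Chat and the urea transporter Slc14a1.

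Ccnb2 had log2 fold changes of 3.25 after GR deletion and 3.17 after adrenalectomy, and Sprr1a ones of 2.27 and 1.52. Of the 102 genes that rose after GR deletion 100 were higher after adrenalectomy, with a median log2 fold change of 1.52 there, while 49.6% of all genes tested were higher after adrenalectomy. Of the 48 that fell 36 were lower after adrenalectomy (median −0.62), against 49.3% of all genes tested. The mitosis list had medians of 2.90 after GR deletion and 2.19 after adrenalectomy, and the S phase list ones of 1.52 and 0.92. Some groups had values of opposite sign, with medians of −0.77 after GR deletion and 0.58 after adrenalectomy for immediate early genes, and −1.29 and 1.43 for endothelial markers.

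The difference between both effects was tested in the same fit. No gene passed (0%) in the main fit, with a smallest edgeR adjusted p = 0.104, although 1610 genes had an unadjusted p under 0.05. DESeq2 called 94, and edgeR called 256 with no filter on low counts and 20, 3, 4 and 1 without GR KO replicate 1, Control replicate 2, ADX replicate 1 and Sham replicate 2. Mcm6 and Mcm2 had values of 1.98 and 2.68 after GR deletion and 0.39 and 0.25 after adrenalectomy, and Cd34 ones of −1.49 and −1.11. The count of calls after adrenalectomy was 5 and 235 without ADX replicates 1 and 2 and 0 and 3 without Sham replicates 1 and 2, so the overlap rested on single libraries as well.

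**Figure D5:**
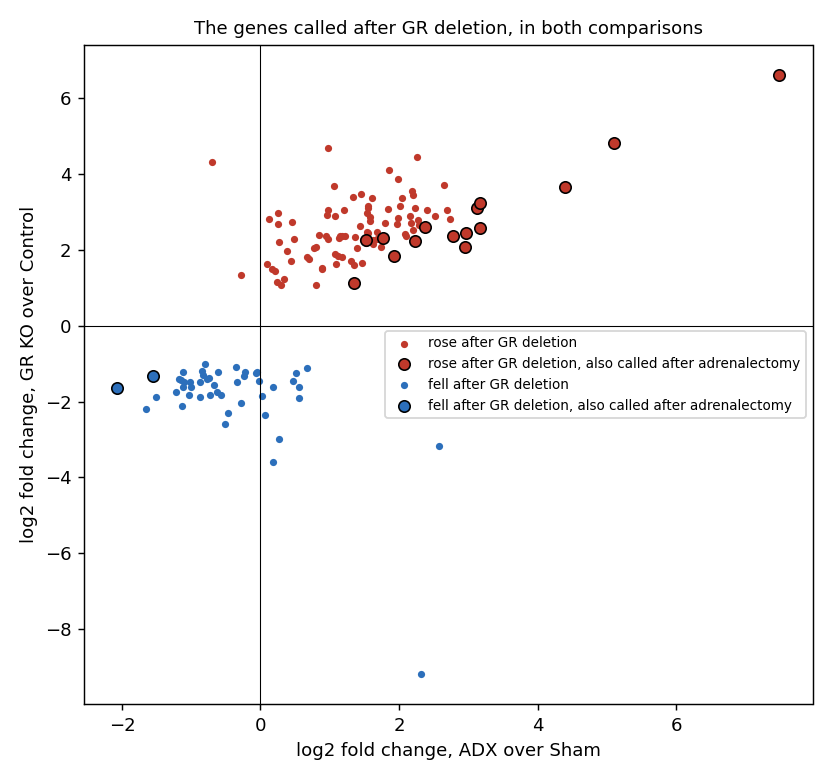
Log2 fold change after GR deletion (GR KO HFSC over Control HFSC, vertical) against log2 fold change after adrenalectomy (ADX HFSC over Sham HFSC, horizontal) for the 150 genes called after GR deletion, with the 17 genes called in both comparisons as outlined points. Of the 102 risen genes 100 lie to the right of 0, and of the 48 fallen genes 36 lie to the left.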

How the data were processed

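RNA was measured in HFSC and DP libraries made with the SMART-Seq v4 and Nextera XT kits, which do not mark strand. The authors' HFSC files hold raw read counts per gene, which per the file headers came from featureCounts 1.6.1 summing exons, with reads below a mapping quality of 30 left out. Trim Galore 0.4.1, STAR 2.5.3, DESeq2 1.22.2 and the build mm10 are named in the submitters' processing notes. The deposited DP files hold estimated counts per transcript from Salmon. Here they were summed to genes with the GENCODE M21 annotation (150 transcripts, at most 0.0752% of a library's counts, had no match) and rounded to whole numbers. In each ADX+CORT HFSC file 27 gene names that had turned into dates were restored.

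All 10 HFSC libraries (14067139 to 33014976 counts) were fitted together (edgeR 4.0.16 and R 4.3.3) after TMM scaling, with edgeR's filter on low counts by group (15231 of 27933 genes tested), 1 mean per group and 5 residual degrees of freedom. Genes with an adjusted p under 0.05 were called, and the standard error is the log2 fold change divided by the square root of the quasi-likelihood F. The 8 DP libraries were fitted in the same way. Replicates differed by more than sampling noise (chi-square per degree of freedom 89.9 in GR KO and 79.7 in Control). The scripts were tested on simulated data. As alternatives, the fit was repeated without the filter, with a replicate block, with only the compared libraries, with each library left out in turn, with median-of-ratios scaling and with DESeq2 1.42.0. Those for Nr3c1 in DP were added after seeing the data.

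The compared libraries and the 37 gene lists (667 genes, 4 without a match) were chosen with earlier results of these data known. The rule for named genes took up to 12 called genes in each direction with at least 5 CPM and no overlap between the groups, a fixed set of genes, and up to 6 called members of each list, or 2 where none was called. Genes outside it, and the sorting of called genes by function, were chosen after their values were seen. Promoter sequences came from RefSeq. Overlapping, antisense and near-identical genes are uncertain, and counting intervals and floors cover counting error only. Results on a few single genes are not reported here.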

Additional observations from a re-analysis of the deposited data

How the results depend on the processing

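Of the 150 calls after GR deletion (102 risen, 48 fallen), DESeq2 gave 660 (409 risen, 251 fallen), no filter on low counts 840 (518 and 322), median-of-ratios scaling 157 (109 and 48) and a fit of only the libraries compared 155 (133 and 22). With 1 library left out the count was 5 to 336 (1 to 229 risen, 4 to 107 fallen). The 45 calls after adrenalectomy became 742 with DESeq2, 888 with no filter, 93 in a fit of only the libraries compared and 0 to 235 with a library left out. For the difference of both effects edgeR gave 0 calls, with 1610 genes at an unadjusted p under 0.05, against 94 with DESeq2, 256 with no filter and 0 to 20 with a library left out. The cause was not tested. No alternative moved the median of all genes by more than 0.05 on the log2 scale. Fits that left a group with 1 library took its spread from the remaining groups.

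The log2 fold change of Nr3c1 in DP was −3.13 to −2.58 with a library left out, and −2.62 without Control DP replicate 2, where the call was lost. Uncalled genes whose sign turned when a library was left out were Gas6 (−0.40 to 0.29), Pros1 (−0.71 to 0.42), Fkbp5 (−0.51 to 1.01), Per1 (−1.05 to 0.0801), Ccnd1 (−0.23 to 0.84), Lgr5 (−0.83 to 0.0037), Sox9 (−0.68 to 0.10), Lhx2 (−0.45 to 0.35), Nfatc1 (−0.27 to 0.34), Foxc1 (−0.12 to 0.68) and Bmp6 (−0.17 to 0.59).

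The replicate numbers are only names here: deviations of libraries with the same number correlated at 0.0269 for GR KO with Control and at −0.0415 for ADX with Sham. With the number as a block 191 genes passed after GR deletion (130 risen, 61 fallen, 122 of them among the 150), 70 after adrenalectomy and 0 for the difference, and Lhx2 stood at −0.016. The part of read depth in these calls was not tested.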
